A study of Mus musculus with 14 samples.

Results

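Chemokine ligands, the small secreted proteins that steer leukocytes, were followed in 14 subcutaneous tumours that the mouse melanoma line SMM102 formed in C57BL/6J mice. The genes were taken by name: every symbol beginning with Ccl or Cxcl and a digit, plus Cx3cl1, which gave 31 of the 18481 genes in the deposited table. The mice were females 6 to 8 weeks old, each given 2 injections of cells, and dosing began once tumours measured 150 to 300 mm3. PLX4032 (vemurafenib), which blocks the BRAF kinase, was injected intraperitoneally (50 mg/kg, 5 days per week), with 2 tumours collected at day 3, 2 at day 6, 2 at day 18 and 4 at day 27. The 4 controls, 2 from day 3 and 2 from day 6, are called untreated in the sample labels, while the design text gives them vehicle. No control was taken on day 18 or 27, so time and treatment cannot be told apart there. The 4 tumours of day 27 came from 2 mice, and all tumours came from a single cell line in hosts with their own immune cells.

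Chemokines are grouped by where their conserved cysteines stand, as CC, CXC or CX3C ligands, and act through receptors on the surface of leukocytes and other cells. Inflammatory chemokines are induced by cytokines such as interferon gamma and tumour necrosis factor and draw in monocytes, T cells, natural killer cells or neutrophils. Homeostatic ones, such as Cxcl12, Ccl19 and Ccl21a, are made constantly by stromal cells and place leukocytes within tissues. Several receptors bind many ligands and several ligands bind more than a single receptor, so the sets used here, most of them named by a main receptor, overlap in function.

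Many of the genes lie in clusters. On GRCm38, Ccl2, Ccl7, Ccl11, Ccl12, Ccl8 and Ccl1 lay at chr11:82035571-82305690, and Ccl5, Ccl9, Ccl6, Ccl3 and Ccl4 at chr11:83525778-83664683. Cxcl5, Cxcl3, Cxcl1 and Cxcl2 lay at chr5:90759360-90905938, and Cxcl9, Cxcl10 and Cxcl11 at chr5:92321347-92365485. Ccl22, Cx3cl1 and Ccl17 lay at chr8:94745590-94812036. RefSeq promoter windows (GRCm38.p6) matched 22 of the 31 genes. The others were Cxcl11, Cxcl5, Cxcl16, Ccl2, Ccl5, Ccl7, Ccl11, Ccl4 and Ccl24. The 250 bases before each start were searched on both strands for the core of the interferon-stimulated response element, GAAA followed by any 2 bases and a further GAAA, for the gamma-activated site, TTCNNNGAA, and for the NF-kappaB consensus. These motifs occurred in 2.98%, 7.02% and 3.90% of 32851 promoter windows of that length. Among the 22 genes the response element core was found for Ccl19, Cxcl10 and Cxcl14, the gamma-activated site for Ccl17 and Cxcl14, and the NF-kappaB consensus for Ccl9, Cxcl1, Cxcl10, Cxcl2 and Cxcl3. A match is a run of letters and not a measured binding site, and the absence of a match says only that these letters were not in the window. Windows are shown 5′ to 3′ on the gene's strand, with matches in capitals, for 2 neighbours in the CXCR3 ligand cluster (Cxcl10, chr5:92348890-92349139; Cxcl9, chr5:92328080-92328329) and for the other 2 genes with the response element core, both called higher at day 18 (Ccl19, chr4:42756366-42756615; Cxcl14, chr13:56296552-56296801), all on the minus strand.
Cxcl10: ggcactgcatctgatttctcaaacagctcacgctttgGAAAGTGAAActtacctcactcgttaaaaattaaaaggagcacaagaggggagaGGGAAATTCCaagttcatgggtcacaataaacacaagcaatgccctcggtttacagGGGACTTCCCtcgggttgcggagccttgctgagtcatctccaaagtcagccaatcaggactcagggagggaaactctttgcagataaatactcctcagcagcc
Cxcl9: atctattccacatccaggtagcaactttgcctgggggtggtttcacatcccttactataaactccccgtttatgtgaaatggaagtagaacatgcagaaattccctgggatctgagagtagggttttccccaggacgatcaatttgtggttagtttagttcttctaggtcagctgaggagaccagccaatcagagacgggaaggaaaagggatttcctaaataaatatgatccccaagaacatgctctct
Ccl19: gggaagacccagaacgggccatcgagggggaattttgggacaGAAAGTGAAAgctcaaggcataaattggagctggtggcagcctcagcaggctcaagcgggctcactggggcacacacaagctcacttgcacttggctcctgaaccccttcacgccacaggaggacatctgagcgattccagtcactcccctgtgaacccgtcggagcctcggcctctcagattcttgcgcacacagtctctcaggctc
Cxcl14: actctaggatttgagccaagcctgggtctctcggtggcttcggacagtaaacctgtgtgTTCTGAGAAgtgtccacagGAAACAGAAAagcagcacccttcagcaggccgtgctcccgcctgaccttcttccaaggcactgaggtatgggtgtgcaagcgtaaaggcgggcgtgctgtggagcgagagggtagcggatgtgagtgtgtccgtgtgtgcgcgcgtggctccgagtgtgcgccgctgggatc

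In the Cxcl10 window the response element core stood at -213 to -204 from the start, and NF-kappaB matches stood at -159 to -150 and -103 to -94. The Cxcl9 window held none of the 3 motifs. Cxcl1, Cxcl2 and Cxcl3, neighbours that encode CXCR2 ligands, carried the same 11 letters, shown in capitals with 15 bases on each side because they are the feature these genes share, on the plus strand at chr5:90891159-90891199, chr5:90903787-90903827 and chr5:90786013-90786053. The NF-kappaB consensus matched these letters in 2 overlapping positions.
Cxcl1: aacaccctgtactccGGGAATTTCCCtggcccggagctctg
Cxcl2: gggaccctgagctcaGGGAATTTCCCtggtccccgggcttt
Cxcl3: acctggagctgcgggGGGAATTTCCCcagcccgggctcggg

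Values are the deposited expression signal per gene, a TPM-like (per-length, near per-million) quantity whose 14 column totals ran from 879385 to 1084401, so the read depth is unknown. Changes are differences of log2(signal + 1) from limma with their standard error (SE), which understate the fold of genes with low signal. A change was called at a Benjamini-Hochberg adjusted p under 0.05 over the 15841 genes that reached a signal of 1 in at least 2 tumours. Of the 31 chemokines 29 were tested, and Cxcl3 and Ccl28 were too low. The p-values reflect how far tumours of a group differed, which may be partly technical. Those that include day 27 are too small, because its 4 tumours came from 2 mice and the columns do not say which, and these tumours supply 3 of the 8 residual degrees of freedom of every comparison. Of 6 melanocyte lineage markers 3 had a row in the table used here, and Mlana, Dct and Tyr did not. Mitf read 2.76 to 4.73 in the controls and 6.55 and 10.4 at day 3, Pmel 0.489 to 0.794 and then 1.04 and 1.05, and both were called higher at day 3. Sox10 read 0.0338 to 0.177 in the controls, 0.204 and 2.07 at day 18 and 0.612 to 2.25 at day 27, where it was called higher. Pmel reached 1 in the tumours of day 3 alone, and Sox10 reached 1 outside day 27 only in day 18 tumour 2. Each thus entered the test through the group where it was called, at low signal, so these 2 calls are no support for a rise.

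The chemokine signal was highest in the first days of PLX4032 and back near the control level at day 27. Control values are listed as the 2 tumours of day 3 and then the 2 of day 6. Summed over the 31 genes, the signal was 1122, 804, 1439 and 650.0 in the 4 control tumours. It was 4533 and 7002 at day 3, 2139 and 5777 at day 6, 1961 and 3651 at day 18, and between 990.3 and 1266 in the 4 tumours of day 27. All 6 tumours of days 3 to 18 lay above all controls, while the range of day 27 lay inside that of the controls. Of the 31 genes, 19 had their highest group mean at day 3, 5 at day 6, 4 at day 18, 2 at day 27 and 1 in the controls of day 3, and 14 had their lowest mean at day 27. The same counts were not made over all genes, so they do not show a trait of the chemokines.

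**Figure D1:**
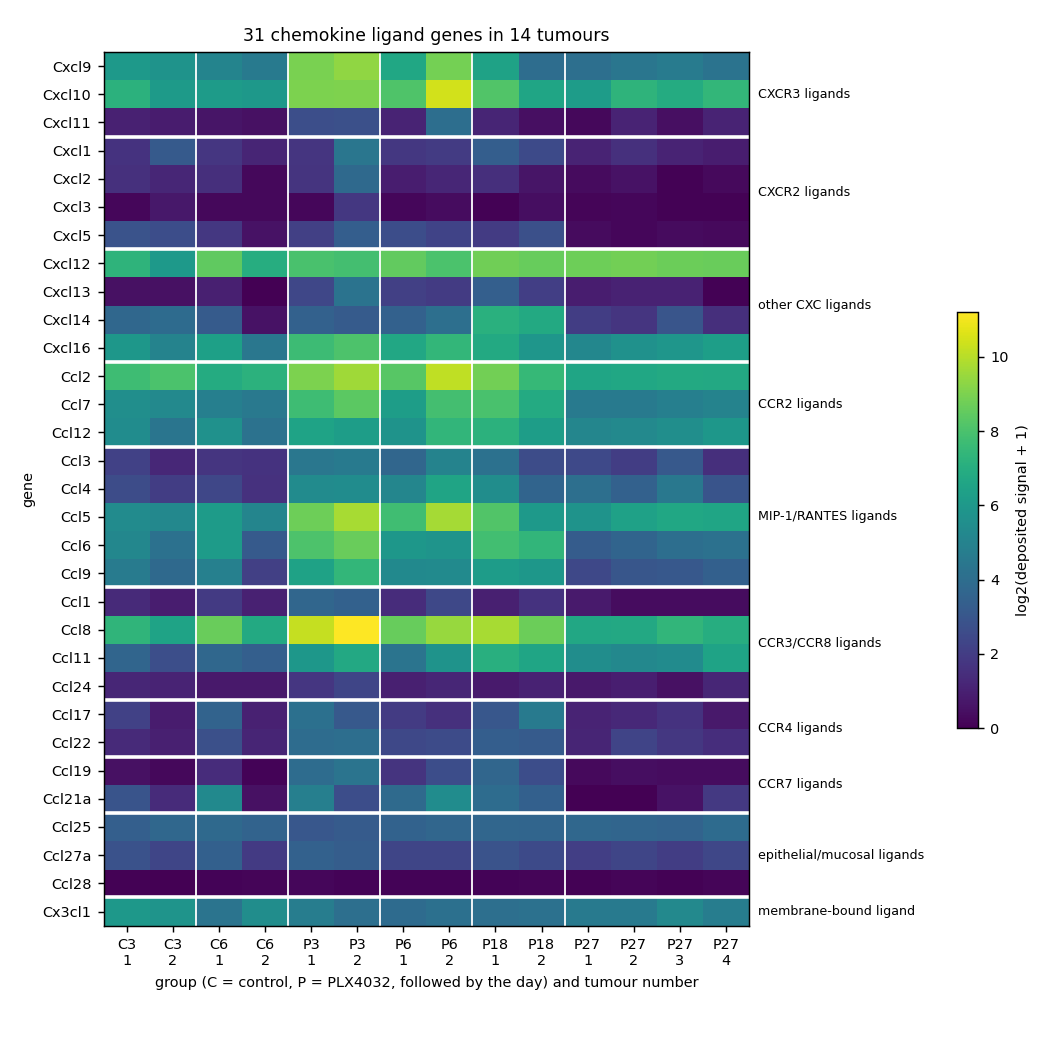
Log2(signal + 1) of the 31 chemokine genes (rows, set apart by receptor with white lines) in the 14 tumours (columns, by group and tumour number). Brighter cells are higher, and the columns of PLX4032 day 3 are the brightest for most rows, while Cxcl12 stays bright through day 27 and Cxcl14 is brightest at day 18.

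At day 3, 20 of 29 chemokines rose and 2 fell against the 4 controls, with a median log2 change of 2.30 (all genes 0.02). Over all genes tested, 24.9% were called higher and 20.8% lower. Both treated tumours lay above every control for 20 chemokines (31.2% of all genes) and below every control for 1 (27.8%). At day 6, 7 of 29 rose and 1 fell (all genes 4.49% and 1.43%), and the median was 1.54. Both tumours of day 6 lay above every control for 14 (all genes 16.2%) and below for 1 (12.8%). At day 18, 10 rose and 1 fell (all genes 5.42% and 2.50%), with a median of 1.502. Both tumours of day 18 lay above every control for 13 (all genes 24.9%) and below for 1 (13.5%). At day 27, 2 rose and 1 fell (all genes 3.58% and 3.09%), and the median was -0.27. All 4 tumours of day 27 lay above every control for 3 (all genes 7.33%) and below for 3 (6.43%). Setting days 18 and 27 against days 3 and 6 of treatment, 17 of 29 were lower and 1 was higher (all genes 19.4% and 20.6%), with a median of -1.38. For 1 chemokine every late tumour lay above every early one (all genes 5.91%), and for 1 below (5.83%). From day 18 to day 27, 10 fell and 0 rose (all genes 6.86% and 3.19%). An unadjusted p under 0.05 was found for 16 of the 29, and for 4435 of the 15841 genes tested. All 4 tumours of day 27 lay below both of day 18 for 18 chemokines (all genes 24.4%) and above for 1 (17.3%). Between the 2 control days limma called 0 chemokines and 0.00% of all genes, with 4 chemokines and 886 genes at an unadjusted p under 0.05. Both controls of day 6 lay below both of day 3 for 8 chemokines (all genes 15.2%) and above for 0 (16.8%). The comparisons with controls share the same 4 control tumours.

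Called in either direction were 45.8% of all genes at day 3, 5.92% at day 6, 7.92% at day 18, 6.67% at day 27, 40.0% late against early and 10.0% from day 18 to day 27. Of the 22 chemokine calls at day 3, 16 held in every alternative run, the exceptions being Cxcl11, Cxcl2, Ccl2, Ccl12, Ccl25 and Cx3cl1. Of the 8 calls at day 6 none did, and of the 11 at day 18 only that of Ccl11 did. The count of day 6 rested on few tumours: it was 0 of 29 in a fit on the compared groups alone, with the controls of day 6 only, and on leaving out control tumour 2 of either day, PLX4032 day 6 tumour 2 or any single tumour of day 27. On leaving out control day 6 tumour 1 it was 18. The count of day 18 was 1 with the compared groups alone. Leaving out tumour 2 of the controls gave 4 for that of day 3 and 7 for that of day 6, and leaving out a PLX4032 day 18 tumour gave 3 for tumour 1 and 6 for tumour 2. The 3 calls of day 27 were lost under each of the 3 ways of averaging its tumours into 2 mice. Without control day 6 tumour 2 day 27 had 8 calls. The late against early count of 18 was 11 without PLX4032 day 6 tumour 2. The 10 calls from day 18 to day 27 became 4 under each pairing of the mice, 5 without either tumour of day 18 and 6 without day 27 tumour 1.

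**Figure D2:**
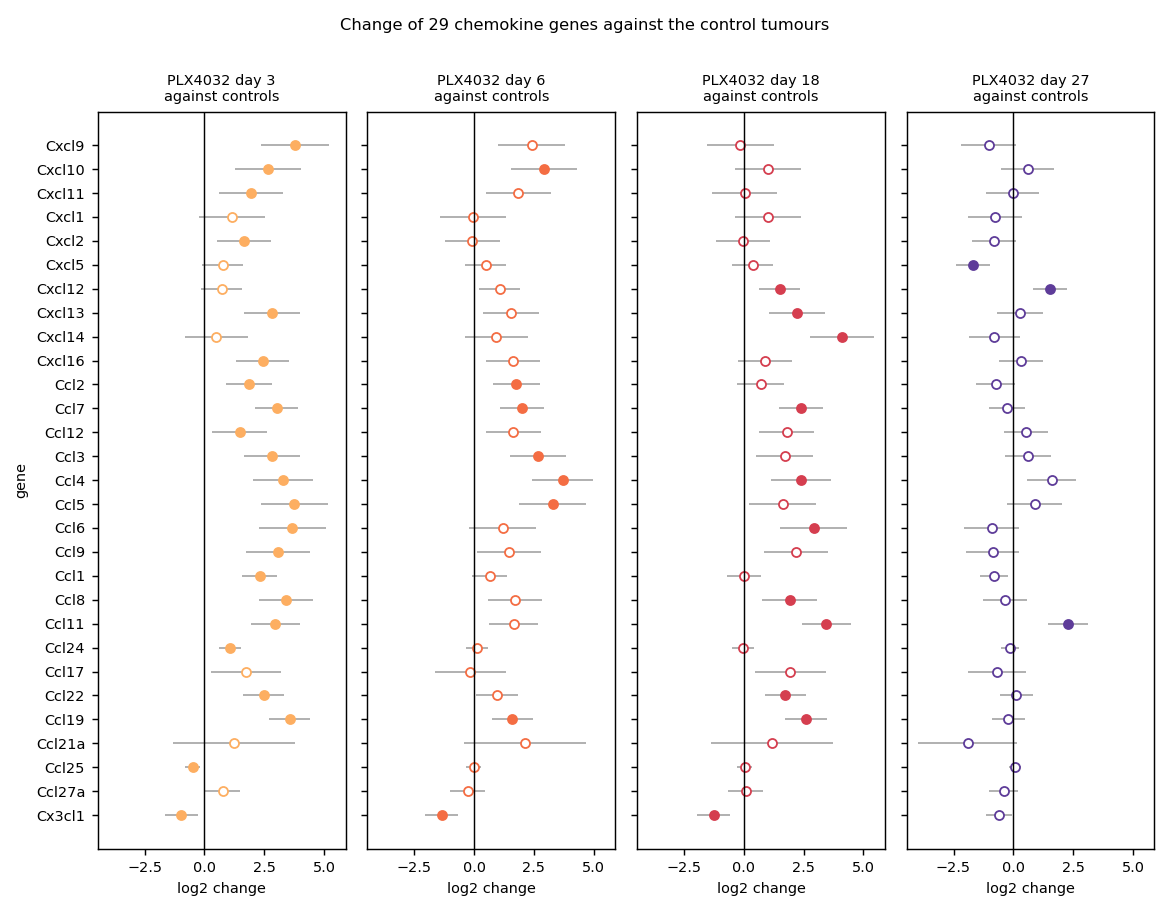
Log2 change of the 29 tested chemokines against the 4 control tumours, 1 panel per day of PLX4032, with 95% confidence intervals as grey lines. Filled circles are changes called at an adjusted p under 0.05: 22 at day 3, 8 at day 6, 11 at day 18 and 3 at day 27.

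Genes of leukocytes moved with these ligands. Ptprc (CD45, on all leukocytes) read between 6.01 and 29.2 in the controls, 120.5 and 183 at day 3, 57.3 and 140.3 at day 6, 53.6 and 29.6 at day 18, and between 14.1 and 34.1 at day 27. The summed signal of 8 monocyte and macrophage markers (8 of 8 in the table, none at 0) was 410.4 to 1455 in the controls, 4239 to 5625 at day 3, 1836 to 3008 at day 6, 1339 to 2336 at day 18 and 609 to 1122 at day 27. That of 8 T cell markers (8 of 8, none at 0) was 21.8 to 41.3 in the controls, 193 to 328 at day 3, 101 to 354 at day 6, 55.0 to 133 at day 18 and 22.9 to 34.9 at day 27. All 8 T cell and all 8 monocyte and macrophage markers rose at day 3, and 7 and 1 of them at day 6. In whole tumours, more or fewer cells of a type and more or less RNA per cell cannot be told apart, and the part of these cells in each ligand's change was not tested.

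The CXCR3 ligands, which are induced by interferons and attract activated T cells and natural killer cells, all rose at day 3, and 1 of 3 was called at day 6. Cxcl9 read 66.9, 52.5, 32.7 and 22.9 in the controls, 502 and 643 at day 3, 100.2 and 471 at day 6, 85.6 and 15.3 at day 18, and 15.9, 19.95, 24.3 and 18.1 at day 27. Cxcl9 lay above every control in both tumours of day 3 and of day 6, while at day 27 only the lowest control, 22.9, fell within its range. Its log2 change was 3.78 (SE 0.64, adjusted p = 0.00098) at day 3, and 2.40 (SE 0.64, adjusted p = 0.052) at day 6, which was not called. Cxcl10 read 144, 68.4, 70.8 and 62.0 in the controls, 512 and 526 at day 3, 275 and 1407 at day 6, 282 and 95.5 at day 18, and 72.7, 157, 119 and 171 at day 27. Cxcl10 rose by 2.66 (SE 0.62, adjusted p = 0.0054) at day 3 and by 2.92 (SE 0.62, adjusted p = 0.034) at day 6, where tumour 2 was the highest of all 14. Cxcl10 at day 27 overlapped the controls, of which day 3 tumour 1 was the highest. Cxcl11 read 1.02, 0.786, 0.575 and 0.429 in the controls, 5.42 and 5.60 at day 3, 1.18 and 15.8 at day 6, 1.22 and 0.357 at day 18, and 0.172, 1.16, 0.389 and 1.16 at day 27. Cxcl11, which GENCODE M21 lists as a polymorphic pseudogene on this assembly, rose by 1.95 (SE 0.61, adjusted p = 0.024) at day 3, a call lost without either tumour of that day, without control day 3 tumour 2, with the day 3 controls alone and with a pseudocount of 5.

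All 3 CXCR3 ligands were lower in late than in early treated tumours, with log2 differences of -3.67 (SE 0.49, adjusted p = 0.00048) for Cxcl9, -1.99 (SE 0.47, adjusted p = 0.0077) for Cxcl10 and -1.89 (SE 0.47, adjusted p = 0.0093) for Cxcl11. Every late tumour was below every early tumour for Cxcl9 and not for the others. The order of Cxcl9 and Cxcl10 also shifted. As a description chosen after the values were seen, the ratio of Cxcl9 to Cxcl10 signal was 0.463, 0.768, 0.462 and 0.370 in the controls, and 0.979 and 1.22 at day 3. It was 0.364 and 0.335 at day 6, 0.303 and 0.160 at day 18, and 0.218, 0.127, 0.203 and 0.106 at day 27. The day 3 ratios lay above all others and those of days 18 and 27 below all others.

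Levels of interferon-gamma genes ran beside them. Of 7 genes of that pathway, all tested, 7 rose at day 3, 1 at day 6 (Irf1), and limma called 0 at days 18 and 27, where 0 had an unadjusted p under 0.05. Late against early, 6 were lower. Those with the smallest p at day 3 were Irf1, a transcription factor (1.82), the kinase gene Jak2 (1.04), and Ifngr2 (0.91) and Ifngr1 (1.58), the receptor chains. Ifng itself read between 0.294 and 1.34 in the controls, 5.87 and 7.80 at day 3, and 1.71 and 13.4 at day 6. It read 2.07 and 0.387 at day 18, and 0.0937 to 0.650 at day 27. The log2 change of Ifng at day 3 was 2.29 (SE 0.55, adjusted p = 0.0061).

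**Figure D3:**
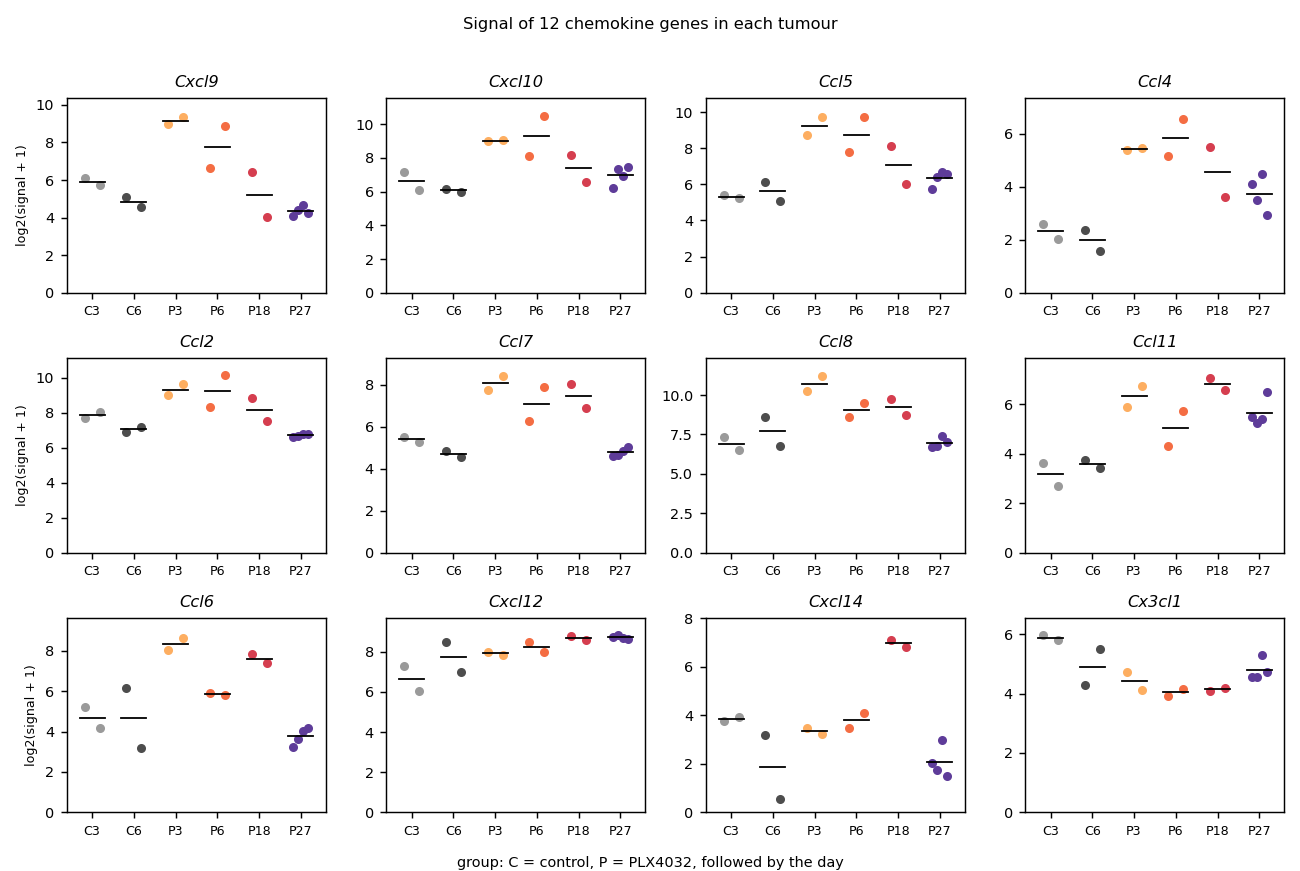
Log2(signal + 1) of 12 chemokines in each tumour (points, by group) with group means as black lines, each panel on its own axis from 0. In 8 panels the highest tumour is of P3 or P6. Every P27 tumour lies above every control for Cxcl12, Ccl11 and Ccl4, Cxcl14 is high at P18 alone, and Cx3cl1 has its highest group mean in the controls of day 3.

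The CXCR2 ligands, which draw neutrophils, stayed low and varied by tumour. Cxcl1 read 2.13, 7.92, 2.39 and 1.26 in the controls, 2.33 and 20.1 at day 3, 2.54 and 2.82 at day 6, 9.23 and 4.72 at day 18, and 1.18, 1.96, 1.18 and 0.859 at day 27. Cxcl1 was far apart in the 2 tumours of day 3 and was called in no comparison. Cxcl2 read 1.92, 1.33, 1.81 and 0.198 in the controls, 2.26 and 13.4 at day 3, 0.875 and 1.31 at day 6, 1.87 and 0.576 at day 18, and 0.275, 0.443, 0.0534 and 0.217 at day 27. Cxcl2 rose by 1.65 (SE 0.51, adjusted p = 0.023) at day 3, a call that was lost without PLX4032 day 3 tumour 2, where the change was 0.58 (adjusted p = 0.35), and in 4 other alternatives. Cxcl5 read 6.25, 5.27, 2.55 and 0.479 in the controls, 3.32 and 9.20 at day 3, 5.33 and 3.76 at day 6, 2.90 and 5.61 at day 18, and 0.245, 0.139, 0.260 and 0.234 at day 27. Cxcl5 was below every other tumour's level in the 4 tumours of day 27, and fell by 1.69 (SE 0.31, adjusted p = 0.012) against the controls and fell by 2.06 (SE 0.39, adjusted p = 0.009) against day 18. Cxcl3 was at most 2.49, in PLX4032 day 3 tumour 2, which was also the highest tumour for Cxcl1, Cxcl2 and Cxcl5, the other genes of this cluster. The 5 neutrophil markers in the table (of 6 listed, Retnlg at 0 in control day 6 tumour 2) summed to 3.86 to 39.4 in the controls and 105 to 177 at day 3, 43.4 to 68.4 at day 6, 93.8 to 128 at day 18 and 9.08 to 40.6 at day 27. Of the 5, 3 were called higher at day 3, 0 at day 6, 1 at day 18 and 0 at day 27. Csf3r alone gave 63.2 and 94.9 of the day 3 sums. Mpo reached 1 only at day 18 (10.7 and 8.15), so it entered the test through that day. The part of these markers was not tested.

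Genes of the NF-kappaB pathway and its inducers moved mostly at day 3: 8 of 10 rose then, 1 at day 6 (Tnf) and 1 at day 18 (Il1b), and 8 were lower late than early. Tnf, the tumour necrosis factor, changed by 2.52 (SE 0.31, adjusted p = 0.00021) at day 3, Il1a by 1.17 (SE 0.17, adjusted p = 0.00052), Tnfaip3, an NF-kappaB feedback inhibitor, by 1.81 (SE 0.27, adjusted p = 0.00055) and Nfkbia, the inhibitor IkappaB alpha, by 1.07 (SE 0.19, adjusted p = 0.0013). Il1a reached a signal of 1 only in the tumours of day 3 (2.16 and 2.99). It entered the test through that day alone, so its call adds no support to the count of 8. The 2 that were not called at day 3 were Nfkb2 (0.32) and Rela (0.13).

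Cxcl12, the CXCR4 ligand that stromal cells make constantly, followed another course from the inflammatory ligands. Cxcl12 read 155, 64.1, 357 and 126 in the controls, 252 and 230.4 at day 3, 362 and 257 at day 6, 443 and 387 at day 18, and 430.3, 458, 406 and 396 at day 27. The 4 tumours of day 27 were within 396 to 458, all above every control. Cxcl12 rose by 1.502 (SE 0.39, adjusted p = 0.041) at day 18 and by 1.53 (SE 0.32, adjusted p = 0.018) at day 27. The day 18 call was lost in 12 of 23 alternatives, and the day 27 call was lost without control day 3 tumour 2, without day 27 tumour 1 or 2, with the compared groups alone and under each mouse pairing. Cxcl12 supplied 16.5% ± 7.2 (SD, n = 4) of the summed chemokine signal in the controls and 36.9% ± 5.6 (SD, n = 4) at day 27, where it was the largest member in all 4 tumours. The summed signal of 6 fibroblast markers (6 of 6 in the table, none at 0) was 1910.2 to 2448 in the controls, 3052 to 3598 at day 3, 2064 to 2792 at day 6, 3217 to 3625 at day 18 and 1805 to 2152 at day 27. Of these, 4 rose and 1 fell at day 3, 2 fell at day 6, 2 rose at day 18 and 2 fell at day 27. That of 6 endothelial markers (6 of 6, none at 0) was 42.1 to 100.4 in the controls, 130.2 to 192 at day 3, 73.6 to 79.9 at day 6, 95.1 to 95.4 at day 18 and 79.7 to 141 at day 27. All 6 endothelial markers rose at day 3, 0 at day 6, and 1 at each of days 18 and 27. Their part in the change of Cxcl12 was not tested. At day 3 the share of Cxcl12 was 5.57% and 3.29%, and Ccl8 held the largest share, 26.3% and 33.8%.

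**Figure D4:**
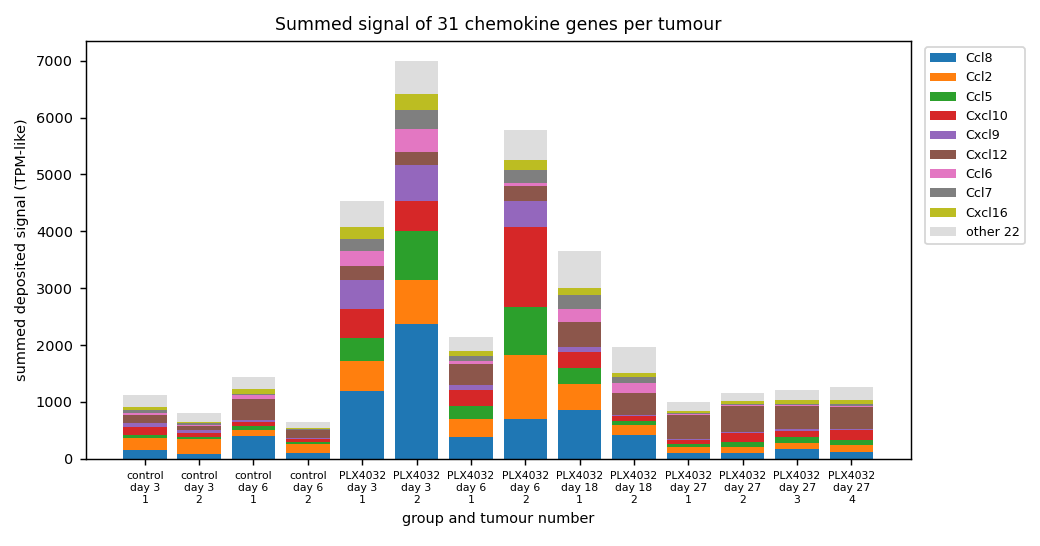
Summed signal of the 31 chemokine genes in each of the 14 tumours, stacked by gene for the 9 named genes and the other 22 together. The bars of PLX4032 day 3 reach 4533 and 7002, those of day 27 stay at 1266 or below, and Cxcl12 makes up the largest part of each day 27 bar.

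Cxcl14, a ligand made constantly by skin epithelium and stroma, was high on day 18 only. Cxcl14 read 12.4, 14.1, 8.23 and 0.467 in the controls, 10.1 and 8.23 at day 3, 10.1 and 16.1 at day 6, 136 and 112 at day 18, and 3.08, 2.35, 6.81 and 1.86 at day 27. Both tumours of day 18 were above every other tumour, and Cxcl14 rose by 4.11 (SE 0.60, adjusted p = 0.0028) at day 18 and fell by 4.89 (SE 0.60, adjusted p = 0.00066) to day 27. The day 18 call was lost in a fit on the compared groups alone (adjusted p = 0.076). The 5 adipocyte markers in the table (of 6 listed) summed to 2331 and 2464 at day 18, against 14.6 to 55.0 in the controls, 72.2 to 113 at day 3, 31.4 to 33.9 at day 6 and 9.53 to 22.9 at day 27, where Adipoq was at 0 in tumour 1 and Plin1 in tumour 3. All 5 rose at day 18. Of these, Plin1 reached 1 outside day 18 only in PLX4032 day 3 tumour 1 (2.81), so it entered the test through day 18. The 2 keratinocyte markers in the table, of 5 listed, summed to 5.10 and 6.30 at day 18 and 6.50 to 22.1 in the controls. The 4 skeletal muscle markers summed to 25.2 and 1284 in the tumours of day 18, and to 21.5 to 197 in the controls. They summed to 488 to 602 at day 3, 206 to 315 at day 6 and 5.43 to 16.7 at day 27. Of the 4 muscle markers 0 were called higher on any treated day, and 1 was called lower at day 27. The part of fat or muscle in the tumours in the change of Cxcl14 was not tested.

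Cxcl16, which is anchored in the membrane and binds CXCR6, and Cxcl13, the CXCR5 ligand that attracts B cells, both rose at day 3. Cxcl16 read 61.0, 31.5, 80.5 and 21.0 in the controls, 202 and 271 at day 3, 103 and 173 at day 6, 109.5 and 58.4 at day 18, and 35.1, 49.8, 57.5 and 77.8 at day 27. Cxcl16 rose by 2.43 (SE 0.51, adjusted p = 0.003), with both day 3 tumours and both day 6 tumours above every control, and day 6 uncalled. Cxcl13 read 0.435, 0.402, 0.988 and 0 in the controls, 4.27 and 18.0 at day 3, 3.35 and 2.92 at day 6, 9.38 and 3.19 at day 18, and 0.845, 1.13, 1.13 and 0.0475 at day 27. Cxcl13 rose by 2.82 (SE 0.52, adjusted p = 0.0016) at day 3 and 2.22 (SE 0.52, adjusted p = 0.03) at day 18 and fell by 1.94 (SE 0.52, adjusted p = 0.043) from day 18 to day 27, a call lost in 16 of 26 alternatives. For Cxcl13 every tumour of days 3, 6 and 18 was above every control, of which 1 was listed at 0. Its change at day 6 was not called. The 2 B cell markers in the table, of 4 listed, summed to 1.40 to 4.96 in the controls, 13.71 and 16.3 at day 3 and 5.52 and 9.47 at day 6. They summed to 3.76 to 8.72 at day 18, which overlapped the controls, and 3.22 to 4.88 at day 27. Of the 2, Cd79b rose at day 3 (15.5 and 11.4 against 0.726 to 3.62) and Cd79a, at 0.861 and 2.28 against 0.443 to 1.34, was not called. At day 6, 1 of these 2 markers was called higher. Their part in the change of Cxcl13 was not tested.

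The CCR2 ligands, which recruit monocytes from blood, all rose at day 3, and 2 of 3 at day 6. Ccl2 read 209, 258, 119 and 145 in the controls, 517 and 784 at day 3, 317 and 1117 at day 6, 451 and 183 at day 18, and 96.4, 100.5, 110.2 and 109 at day 27. Ccl2 was high in both controls of day 3 too, and the 4 tumours of day 27 lay below all controls. Ccl2 rose by 1.86 (SE 0.44, adjusted p = 0.0061) at day 3 and by 1.76 (SE 0.44, adjusted p = 0.045) at day 6, with a late against early difference of -1.83 (SE 0.34, adjusted p = 0.0023). The day 3 call was lost without PLX4032 day 3 tumour 2 (adjusted p = 0.072). Ccl7 read 45.1, 37.3, 28.0 and 22.3 in the controls, 211 and 336 at day 3, 74.9 and 233 at day 6, 257 and 116 at day 18, and 23.1, 23.9, 27.5 and 31.7 at day 27. Ccl7 rose by 3.01 (SE 0.41, adjusted p = 0.00037) at day 3, 2.01 (SE 0.41, adjusted p = 0.034) at day 6 and 2.40 (SE 0.41, adjusted p = 0.0075) at day 18, with every tumour of those days above every control, and its day 27 level overlapped the controls. Ccl12 read 42.2, 19.6, 50.1 and 17.6 in the controls, 90.9 and 75.6 at day 3, 53.2 and 164 at day 6, 145 and 74.8 at day 18, and 34.2, 37.9, 44.8 and 59.2 at day 27. Ccl12, a mouse CCR2 ligand, rose by 1.47 (SE 0.52, adjusted p = 0.038) at day 3, a call lost in 8 of 24 alternatives, among them the fit on the compared groups alone. Its receptor gene Ccr2 read 3.06 to 20.5 in the controls, and 80.6 and 117 at day 3, where the change was 3.32 (SE 0.53, adjusted p = 0.00078).

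The ligands of the macrophage inflammatory protein and RANTES group, which act on T cells, natural killer cells and macrophages, rose as a whole set at day 3 (5 of 5) and in 3 of 5 at day 6. Ccl3 read 3.46, 1.35, 2.27 and 2.13 in the controls, 21.0 and 22.7 at day 3, 11.95 and 31.3 at day 6, 17.3 and 5.06 at day 18, and 4.48, 3.13, 7.77 and 1.83 at day 27. Ccl4 read 5.03, 3.12, 4.18 and 1.98 in the controls, 41.4 and 43.2 at day 3, 34.6 and 93.0 at day 6, 43.8 and 11.1 at day 18, and 16.2, 10.3, 21.1 and 6.56 at day 27. Ccl5 read 40.9, 36.9, 69.9 and 33.0 in the controls, 419 and 855 at day 3, 220.1 and 838 at day 6, 282 and 64.7 at day 18, and 52.7, 83.7, 102 and 95.8 at day 27. In all 3 genes every tumour of days 3 and 6 was above every control. Ccl5 rose by 3.76 (SE 0.63, adjusted p = 0.00097) at day 3 and 3.28 (SE 0.63, adjusted p = 0.034) at day 6, Ccl4 by 3.29 (SE 0.57, adjusted p = 0.0012) and 3.71 (SE 0.57, adjusted p = 0.034), and Ccl3 by 2.83 (SE 0.54, adjusted p = 0.0018) and 2.67 (SE 0.54, adjusted p = 0.034). Ccl4 rose at day 18 too, by 2.40 (SE 0.57, adjusted p = 0.031), a call lost without PLX4032 day 18 tumour 1 (adjusted p = 0.30). Ccl6 read 35.6, 17.2, 69.3 and 8.09 in the controls, 265 and 401 at day 3, 59.8 and 55.3 at day 6, 226 and 166 at day 18, and 8.48, 11.2, 15.5 and 17.3 at day 27. Ccl9 read 24.0, 13.1, 28.7 and 3.36 in the controls, 86.7 and 171 at day 3, 38.5 and 40.7 at day 6, 71.9 and 60.2 at day 18, and 4.46, 7.06, 7.58 and 9.92 at day 27. Ccl6 and Ccl9, rodent ligands of CCR1, were highest at day 3, where Ccl6 rose by 3.68 (SE 0.63, adjusted p = 0.0011) and Ccl9 by 3.07 (SE 0.61, adjusted p = 0.0022). At day 6, Ccl6 overlapped the controls, and at day 18 it was called again, by 2.93 (SE 0.63, adjusted p = 0.021). From day 18 to day 27 Ccl6 fell by 3.83 (SE 0.63, adjusted p = 0.0044) and Ccl9 fell by 3.06 (SE 0.61, adjusted p = 0.012), and their 4 day 27 tumours all lay below the day 18 tumours.

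The CCR3 and CCR8 ligands, which act on eosinophils and on T cell subsets, rose at day 3 in 4 of 4. Ccl8 read 161, 89.5, 395 and 109.5 in the controls, 1194 and 2364 at day 3, 391 and 707 at day 6, 862 and 417 at day 18, and 104, 109, 164 and 126 at day 27. Ccl8, a CCR8 ligand in mice, gave the highest signal of any chemokine in any tumour, 2364, and rose by 3.40 (SE 0.51, adjusted p = 0.00058) at day 3 and 1.92 (SE 0.51, adjusted p = 0.046) at day 18. Ccl11 read 11.5, 5.44, 12.4 and 9.66 in the controls, 59.2 and 107 at day 3, 18.8 and 52.8 at day 6, 134 and 94.9 at day 18, and 44.2, 36.6, 41.1 and 90.8 at day 27. Ccl11, the eotaxin that acts on eosinophils, was above every control in all 10 treated tumours. It rose by 2.96 (SE 0.47, adjusted p = 0.0007) at day 3, 3.46 (SE 0.47, adjusted p = 0.0017) at day 18 and 2.29 (SE 0.38, adjusted p = 0.0075) at day 27. Its change at day 6, 1.66 (SE 0.47, adjusted p = 0.06), was not called. The call at day 18 held in all 23 alternatives, and that of day 27 in all but the 3 mouse pairings, where the adjusted p reached 0.055. Within day 27, tumour 4 (90.8) stood above the other 3. Ccl1 read 1.53, 0.884, 2.72 and 1.04 in the controls, 12.1 and 10.1 at day 3, 1.71 and 4.46 at day 6, 0.959 and 2.16 at day 18, and 0.733, 0.291, 0.302 and 0.283 at day 27. Ccl1, a CCR8 ligand made by T cells, rose by 2.30 (SE 0.33, adjusted p = 0.00044) at day 3, with a late against early difference of -1.87 (SE 0.25, adjusted p = 0.00048). Ccl24, an eotaxin, was at most 4.05 and changed by 1.07 (SE 0.21, adjusted p = 0.0023) at day 3.

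Ccl17 and Ccl22, CCR4 ligands of dendritic cells and macrophages that act on regulatory and helper T cells, differed in their calls. Ccl22 read 1.54, 0.970, 5.60 and 1.20 in the controls, 14.8 and 15.7 at day 3, 4.45 and 4.89 at day 6, 9.21 and 8.22 at day 18, and 1.25, 3.87, 2.52 and 1.73 at day 27. Ccl22 rose by 2.47 (SE 0.39, adjusted p = 0.00071) at day 3 and 1.73 (SE 0.39, adjusted p = 0.025) at day 18. Ccl17 read 3.56, 0.798, 10.7 and 1.04 in the controls, 16.6 and 7.76 at day 3, 2.82 and 1.94 at day 6, 7.35 and 23.8 at day 18, and 1.17, 1.46, 2.12 and 0.708 at day 27. Ccl17 overlapped the controls at day 3 and was called only from day 18 to day 27, where it fell by 2.64 (SE 0.67, adjusted p = 0.034), a call lost in 8 of 26 alternatives. Its change at day 18, 1.94, was not called, though it was no smaller than that of Ccl22. In limma both genes had an unadjusted p under 0.05 at days 3 and 18. Cx3cl1, their neighbour, fell instead. Cx3cl1 read 61.7, 54.3, 18.7 and 44.5 in the controls, 25.6 and 16.3 at day 3, 14.2 and 16.8 at day 6, 16.0 and 17.4 at day 18, and 22.6, 22.8, 38.0 and 25.6 at day 27. Cx3cl1, a membrane-anchored ligand that binds CX3CR1 on monocytes and natural killer cells, was 1 of 2 chemokines called lower at day 3, where it fell by 0.97 (SE 0.31, adjusted p = 0.026). It fell by 1.35 (SE 0.31, adjusted p = 0.037) at day 6 and fell by 1.25 (SE 0.31, adjusted p = 0.036) at day 18. Control day 6 tumour 1 (18.7) was lower than the other 3 controls and within the treated range. The day 3 call was lost without PLX4032 day 3 tumour 2 (adjusted p = 0.23), and at day 27 it was -0.60 (SE 0.25, adjusted p = 0.2), not called. The receptor gene Cx3cr1 changed by 1.36 (SE 0.60, adjusted p = 0.084) at day 3, not called.

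Of the CCR7 ligands, which guide dendritic cells and naive T cells, Ccl19 rose on 3 days. Ccl19 read 0.413, 0.164, 1.71 and 0.0929 in the controls, 14.7 and 18.8 at day 3, 2.19 and 5.28 at day 6, 12.1 and 5.23 at day 18, and 0.209, 0.350, 0.312 and 0.277 at day 27. Every tumour of days 3, 6 and 18 was above every control for Ccl19. It rose by 3.57 (SE 0.39, adjusted p = 0.00011) at day 3, 1.59 (SE 0.39, adjusted p = 0.042) at day 6 and 2.60 (SE 0.39, adjusted p = 0.0034) at day 18 and fell by 2.81 (SE 0.39, adjusted p = 0.0014) from day 18 to day 27. Ccl21a read 6.53, 1.57, 38.8 and 0.416 in the controls, 27.6 and 5.35 at day 3, 13.6 and 42.3 at day 6, 14.8 and 9.72 at day 18, and 0, 0, 0.482 and 2.68 at day 27. Ccl21a was called in no comparison, and control day 6 tumour 1 was nearly as high as PLX4032 day 6 tumour 2. It belongs to a family of near-identical copies, so its reads may be shared and the value is uncertain. Ccr7 rose by 2.50 (SE 0.51, adjusted p = 0.0026) at day 3.

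The epithelial and mucosal ligands moved little. Ccl25 read 9.60, 12.4, 13.4 and 10.7 in the controls, 7.31 and 8.37 at day 3, 10.6 and 12.1 at day 6, 12.2 and 11.5 at day 18, and 12.2, 11.5, 11.03 and 13.96 at day 27. Ccl25, the CCR9 ligand best known from gut and thymus, fell by 0.50 (SE 0.14, adjusted p = 0.015) at day 3, with both tumours below every control. Ccl27a read 5.98, 4.11, 9.76 and 2.77 in the controls, 10.1 and 8.94 at day 3, 4.06 and 4.12 at day 6, 6.41 and 4.72 at day 18, and 3.22, 4.14, 3.12 and 4.27 at day 27. Ccl27a, a skin ligand of CCR10 with near-identical copies, was called in no comparison. Ccl28 was at most 0.143. The fall of Ccl25 was lost without PLX4032 day 3 tumour 1 (adjusted p = 0.11), with the controls of day 3 alone and with the compared groups alone.

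In the chromosome 11 clusters 6 of 6 and 5 of 5 members rose at day 3, with changes of 1.47 to 3.40 and 2.83 to 3.76. At day 6, 2 of 6 and 3 of 5 rose, at day 18, 3 of 6 and 2 of 5, and at day 27, 1 (Ccl11) and 0. Over all genes, 24.9% were called higher at day 3, 4.49% at day 6, 5.42% at day 18 and 3.58% at day 27. In the cluster with the CXCR3 ligands 3 of 3 rose at day 3 and in that of the CXCR2 ligands 1 of 3 tested. In the cluster of Ccl22, Cx3cl1 and Ccl17, 1 rose and 1 fell at day 3. These genes are neighbours, so they are not independent points.

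Chemokine receptors, through which leukocytes respond to these ligands, rose in 10 of 13 tested at day 3 (of 17 listed, 15 in the table), with a median of 1.36, in 4 at day 6, and in 2 at day 18. Over all genes, 24.9%, 4.49% and 5.42% were called higher on these days. The 13 include Cxcr5, which reached 1 only in the tumours of day 3 (1.00 and 1.64). They also include Xcr1, which reached 1 outside day 3 only in day 6 tumour 2 (1.39). Both entered the test through day 3, so they add no support to these counts. At day 27 limma called 0, with 2 at an unadjusted p under 0.05. No receptor on the list was called lower on any of these days. The members with the smallest p at day 3 were Ccr8 (2.12), Cxcr3 (2.88), Ccr9 (1.30) and Ccr2 (3.32). Cxcr3 read 0.902 to 2.32 in the controls, 14.3 and 23.2 at day 3, 6.89 and 15.4 at day 6, 8.49 and 4.25 at day 18 and 1.24 to 2.05 at day 27, so day 27 lay inside the control range. Cxcr3 and Ccr9 were the 2 called at day 18. Of the 13, 10 were lower late than early (all genes 19.4%), and 4 fell from day 18 to day 27 (Ccr2, Ccr8, Ccr9 and Cxcr3, all genes 6.86%). Cxcr4, the receptor of Cxcl12, rose at day 3 by 1.83 (SE 0.34, adjusted p = 0.0015) and was 17.6 to 29.8 at day 27, against 12.4 to 26.1 in the controls.

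The list of 5 atypical receptors holds mostly genes whose products bind chemokines without the usual signal. Of the 5, 2 rose at day 3 (Ackr1, 2.33, and Ccrl2, 2.83) and 1 at day 18 (Ackr1). Ackr3, the other Cxcl12 receptor, read 25.2 to 50.1 over all 14 tumours and was called in no comparison. Of the chemokines with other symbols, 2 were tested and both rose at day 3, Xcl1 by 3.04 (SE 0.44, adjusted p = 0.0005) and Pf4 by 1.35 (SE 0.40, adjusted p = 0.017). Xcl1 rose at day 6 too and Pf4 fell by 1.47 (SE 0.32, adjusted p = 0.024) at day 27, where it was 14.9 to 31.0 against 33.4 to 98.6 in the controls.

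**Figure D5:**
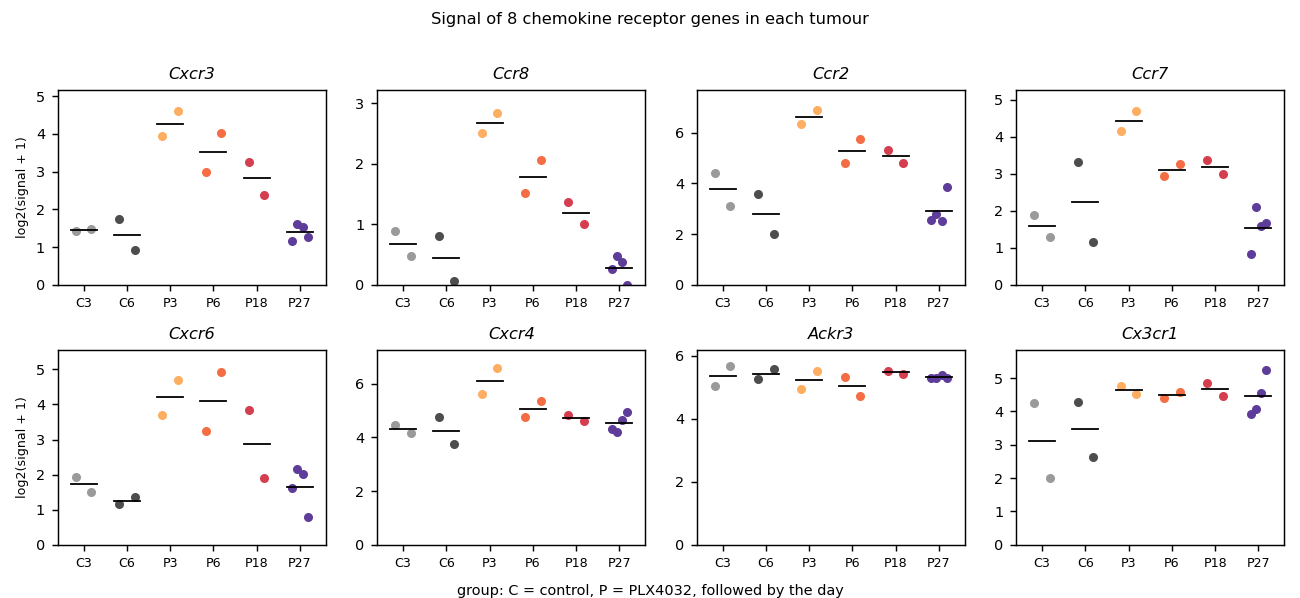
Log2(signal + 1) of 8 chemokine receptor genes in each tumour (points, by group) with group means as black lines, each panel on its own axis from 0. Cxcr3, Ccr8, Ccr2, Ccr7, Cxcr6 and Cxcr4 peak at P3 or P6, while Ackr3 varies little and Cx3cr1 was called at no day.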

How the data were processed

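Per the labels' protocols, Trizol RNA of 14 frozen whole tumours went into TruSeq libraries. The deposited signal, 1 value per gene and tumour, is named TPM in the authors' table, but 5 of 14 columns sum to more than TPM can, so it was treated as rescaled. Kallisto, sleuth and mm10 are named in the submitters' processing notes. Strand use and versions are not given in the sources used here. Of the symbols, 96.4% (17811) matched a mouse gene name table, and 54 rows repeat another row, none of them a chemokine. Of 434 chemokine values 3 are exactly 0, which can be failed estimates.

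Columns name a group but no animal, so tumour numbers are only names. Log2(signal + 1) of the 15841 genes reaching 1 in at least 2 tumours was fitted with limma 3.58.1 in R 4.3.3 as 6 group means with a variance trend (2-sided, Benjamini-Hochberg over all genes, threshold 0.05). Each treated day was set against the mean of both control groups. Tumours of 1 group correlated at 0.971 to 0.992 over log2 values. The fit was tested on simulated data for the 15841 genes: of genes changed by 2 log2 units it recovered 93% at day 3, 90% at day 6, 91% at day 18 and 97% at day 27. Of genes changed by 1 log2 unit it recovered 77% at day 3, where 19 of its 189 calls were unchanged genes. The changed genes, 100 of each size, were not drawn from those of lowest mean signal, so the rates do not cover such genes. These draws were independent between tumours, also for the 4 of day 27, although those came from 2 mice.

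Coordinates come from GENCODE M21 and promoter windows from RefSeq. The members and gene lists were chosen with earlier results of these data known. Some genes of the lists are not reported here and were left out of their counts. Every member is named. Values in every tumour are given for up to 4 members per receptor set, and for members called in any comparison, with a group mean of at least 5. Of other lists, up to 4 genes with the smallest p are named with their changes, and further receptors of described ligands were added after their values were seen. Alternatives were a pseudocount of 0.1 or 5, a minimum of 5 or no minimum, scaling by median of ratios or quantiles, no variance trend, sample weights, the compared groups alone, same-day controls, mouse averages for day 27 and leaving out each tumour.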

Additional observations from a re-analysis of the deposited data

Results flagged for a closer look

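Of 62 groups of 4 tumours examined (the 4 controls and the 4 tumours of day 27, for each chemokine), 7 held a tumour set apart from the other 3 by Dixon's test on the signal. Chance gives about 1 in 20 only for independent, normally distributed values of a single population. The controls span 2 days, the tumours of day 27 came from 2 mice, and the genes are related. The 7 therefore cannot be read as an excess. Among the controls, Cxcl10 was 144 in day 3 tumour 1 against 62.0 to 70.8 in the others. Control day 3 tumour 2 stood out for Cxcl1 (7.92 against 1.26 to 2.39) and Cxcl3 (0.666 against 0.131 to 0.182), which are neighbours on chromosome 5. Control day 6 tumour 1 stood out for Ccl22 (5.6 against 0.970 to 1.54) and Ccl21a (38.8 against 0.416 to 6.53). At day 27, Ccl1 was 0.733 in tumour 1 against 0.283 to 0.302, and Ccl11 was 90.8 in tumour 4 against 36.6 to 44.2.

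The other entries are chemokines whose response differed between stages of treatment in limma's direct test of that difference. Between late (days 18 and 27) and early (days 3 and 6) tumours the log2 differences were -3.67 for Cxcl9, -2.26 for Ccl5, -1.99 for Cxcl10, -1.89 for Cxcl11, -1.87 for Ccl1, -1.83 for Ccl2, -1.78 for Ccl8, -1.61 for Ccl9 and -1.60 for Ccl3. They were -1.50 for Ccl4, -1.45 for Ccl7, -1.43 for Cxcl16, -1.42 for Ccl6, -1.38 for Ccl19, -1.28 for Cxcl5, -1.22 for Cxcl2 and -0.68 for Ccl24. Ccl25 alone was higher late, by 0.32. From day 18 to day 27 the differences were -4.89 for Cxcl14, -3.83 for Ccl6, -3.06 for Ccl9, -2.81 for Ccl19 and -2.67 for Ccl7. They were -2.64 for Ccl17, -2.27 for Ccl8, -2.06 for Cxcl5, -1.94 for Cxcl13 and -1.60 for Ccl22.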

How the results depend on the processing

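Leaving out each tumour in turn gave 17 to 28 called chemokines at day 3 (22 with all tumours), 0 to 18 at day 6 (8), 3 to 14 at day 18 (11), 2 to 8 at day 27 (3), 11 to 23 late against early (18) and 5 to 11 from day 18 to day 27 (10). Where a group of 2 was reduced to 1 tumour, that tumour was assumed to vary like the other groups. A fit on the compared groups alone, which has fewer residual degrees of freedom, called 0 at day 6, 1 at day 18 and 5 at day 27. The controls of the same day alone gave 0 at day 6. Averaging the day 27 tumours into 2 mice called 0 at day 27 and 4 from day 18 to day 27 under each of the 3 pairings. No called member reversed, and every other alternative stayed within 1.5 times the count. All alternatives called 0 between the control days. Calls that held in every alternative were 16 of the 22 at day 3, 1 of the 11 at day 18 and 0 of those at days 6 and 27. For the stages of treatment they were 11 of the 18 late against early and 4 of the 10 from day 18 to day 27. Quantile scaling moved the median of all genes at day 3 from 0.02 to -0.15. No paired analysis was possible because the columns carry no animal number and the groups' labels share fewer than 2. Depth is unknown, so no counting error could be given for the low ligands.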

Other observations

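Neighbouring CC ligand genes did not keep a fixed ratio. Ccl6 and Ccl5 lie in the same chromosome 11 cluster. The ratio of Ccl6 to Ccl5 signal was 0.872, 0.466, 0.991 and 0.245 in the controls, 0.633 and 0.469 at day 3, and 0.272 and 0.0660 at day 6. It was 0.799 and 2.57 at day 18, and 0.161, 0.134, 0.152 and 0.180 at day 27. The ratio was chosen after its values were seen and was not tested.

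The summed signal of 6 natural killer cell markers (6 of 6 in the table, none at 0) was 26.8 to 42.0 in the controls, 190.0 to 533 at day 3, 55.3 to 206 at day 6, 21.5 to 46.9 at day 18 and 11.98 to 16.1 at day 27. All 6 rose at day 3, and 2 were lower than the controls at day 27.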
